A study of Mus musculus with 4 samples.

Results

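The genes described here make up the working parts of the lysosome: 39 genes taken by symbol from a list of cathepsins and their partners, hydrolases and lipid-handling proteins, membrane glycoproteins, subunits of the proton pump and 2 transcription factors. Every one of the 39 was listed in all 3 tables of the study, among 13685 genes listed in at least 1. The study treated dendritic cells grown from the bone marrow of C57BL/6 mice labelled as 4 weeks old, which had been cultured for 7 days in 10 ng/ml of IL-4 and 10 ng/ml of GM-CSF. The 4 groups were control medium, Wnt2 (a secreted Wnt ligand), CAF.CM and CAF.CM mixed beforehand with a Wnt2 antibody (the antibody library), and all of them share the strain, the bone marrow source and the cytokine culture. CAF.CM is medium conditioned by CAF, the usual abbreviation for cancer-associated fibroblasts. The dose and length of the treatments, the source of the CAF and the number of animals are not given in the sources used.

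Each group has 1 column of values. Triplicates are mentioned in the series text, but no source says if 1 column combines several cultures, so each column is treated as 1 library and no difference below has a replicate check. Values are CPM, reads of a gene scaled to library size, as normalized by the authors. A difference is given as a log2 ratio of CPM with a prior count of 2 reads, and its 95% interval, exact and binomial, covers counting error only. A gene is called higher or lower when the ratio reached 2-fold, which is a rule of size and not a test. Over the genes listed, the recovered reads numbered 143071376 in control medium, 154399767 in the Wnt2 library, 25225220 in the CAF.CM library and 22791494 in the antibody library. Where 4 values follow each other with no library named, they are in that order. The comparisons of Wnt2 and of CAF.CM share the control library, and the CAF.CM library stands in 2 comparisons, so their values are set side by side and not treated as separate evidence.

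Lysosomes are acidic organelles in which proteases, glycosidases and lipases break down material from endocytosis and autophagy. The vacuolar proton pump (V-ATPase) acidifies them: its membrane sector V0 carries protons and its outer sector V1 splits ATP. In dendritic cells the organelle also cuts antigens and the invariant chain for presentation on MHC class II, and TFEB and TFE3 are transcription factors known to switch on many of its genes through a promoter element built around the letters CACGTG.

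Most of the 39 genes stood lower with Wnt2 and with CAF.CM than in control medium, and the median ratio lay further from 0 with CAF.CM. With CAF.CM, 8 of the 39 were at least 2-fold lower (Atp6v0a1, Atp6v0d2, Cd63, Ctsb, Ctsl, Lipa, Man2b1 and Tfeb) and 1, Npc2, was at least 2-fold higher. Across all 13329 genes of that comparison 8.69% were called lower and 6.68% higher. With Wnt2, 3 of the 39 were called lower (Atp6v0a1, Ctsb and Lipa), where the background was 2.93% lower, and none was called higher, where it was 2.87%. Between CAF.CM plus the antibody and CAF.CM alone, none of the 39 reached 2-fold in either direction, against 1.02% of all genes higher and 3.65% lower. Among the 10361 genes with at least 100 reads in 1 library, these shares were 0.45% and 2.52%. The counting interval of each called member lay wholly beyond 2-fold, which held for 2.1% of all genes lower with Wnt2 and for 5.69% lower and 4.8% higher with CAF.CM. At a threshold of 1.5-fold the members called were 9 lower and 1 higher with Wnt2 (background 8% and 7.38%), 20 lower and 1 higher with CAF.CM (17.9% and 13.8%), and 1 lower and 1 higher with the antibody (10.7% and 4.4%).

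The median log2 ratio of the 39 was -0.26 with Wnt2, -0.63 with CAF.CM and -0.06 for the antibody against CAF.CM alone, beside -0.02, -0.04 and -0.04 over all genes. Ratios were below 0 for 34 members with Wnt2, 35 with CAF.CM and 26 with the antibody, where 53%, 53.3% and 54.8% of all genes were. The count of 35 is 29 when libraries are scaled to reads in protein-coding genes, which raises the all-gene median with CAF.CM by 0.16, and the 26 is then 21. Per the authors' deposited table, with CAF.CM, 22 members had an adjusted p below 0.05 and a lower value and 1 had a higher value, against 32.6% of all genes in either direction. For Wnt2 the authors' deposited table gave 9 lower and 1 higher, with 15.4% of all genes, and for the antibody 1 lower and 0 higher, with 6.98%. The dispersion behind those p-values is not stated.

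**Figure D1:**
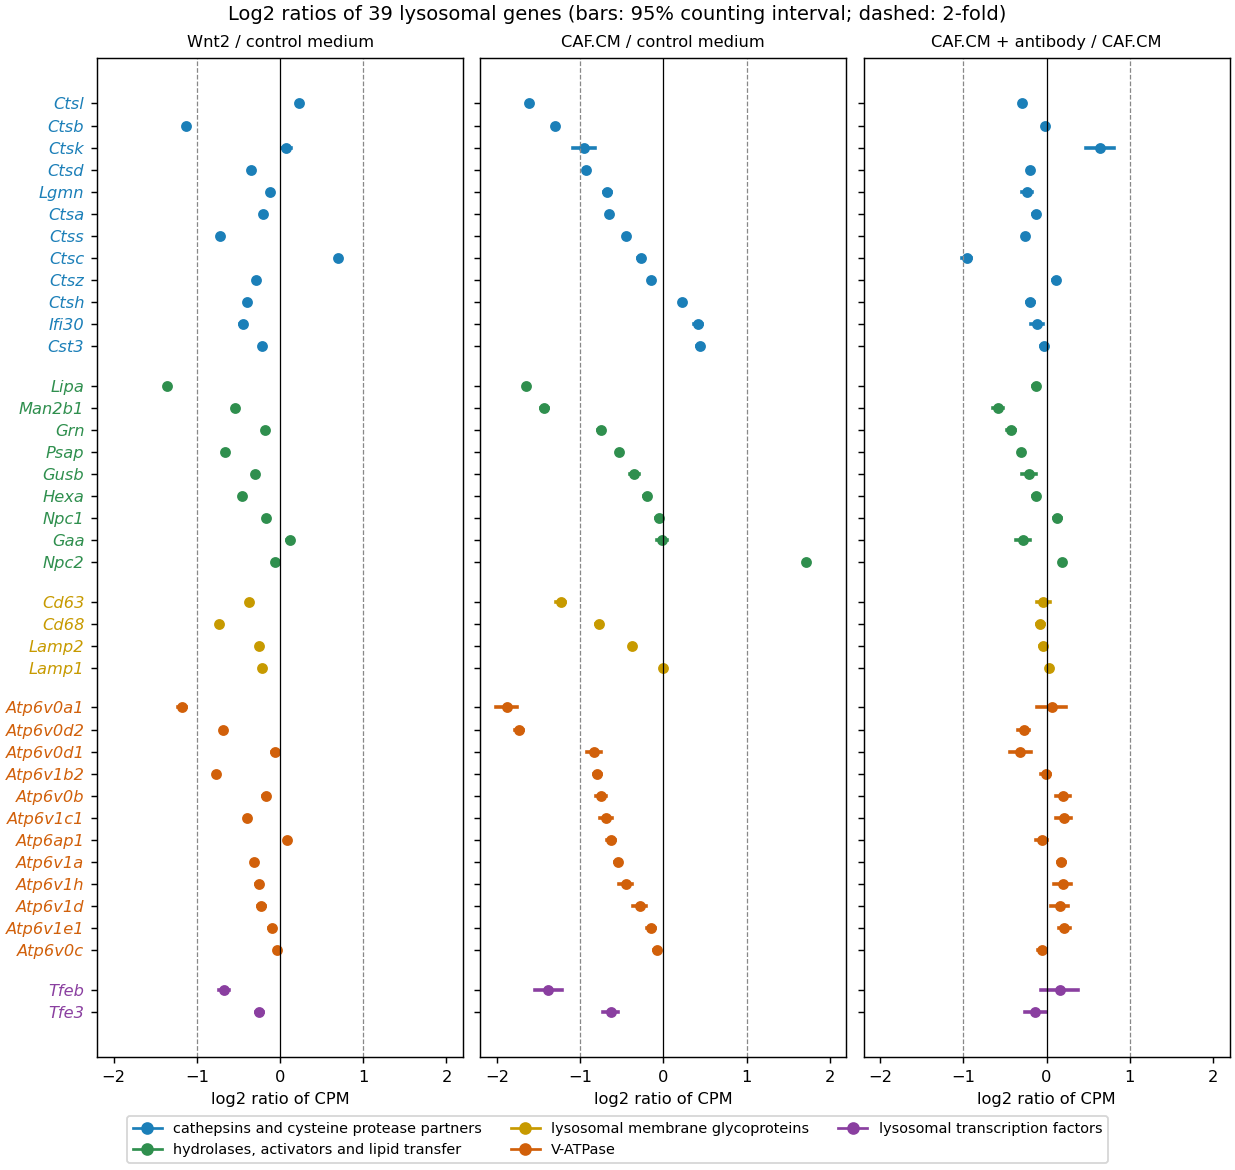
Log2 ratio (x axis) of each of the 39 genes, grouped by role, in the 3 comparisons, with 95% counting intervals as horizontal bars and dashed lines at 2-fold. Npc2 is the only gene beyond 2-fold higher, with CAF.CM (1.71), and 8 genes lie beyond 2-fold lower there.

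**Figure D2:**
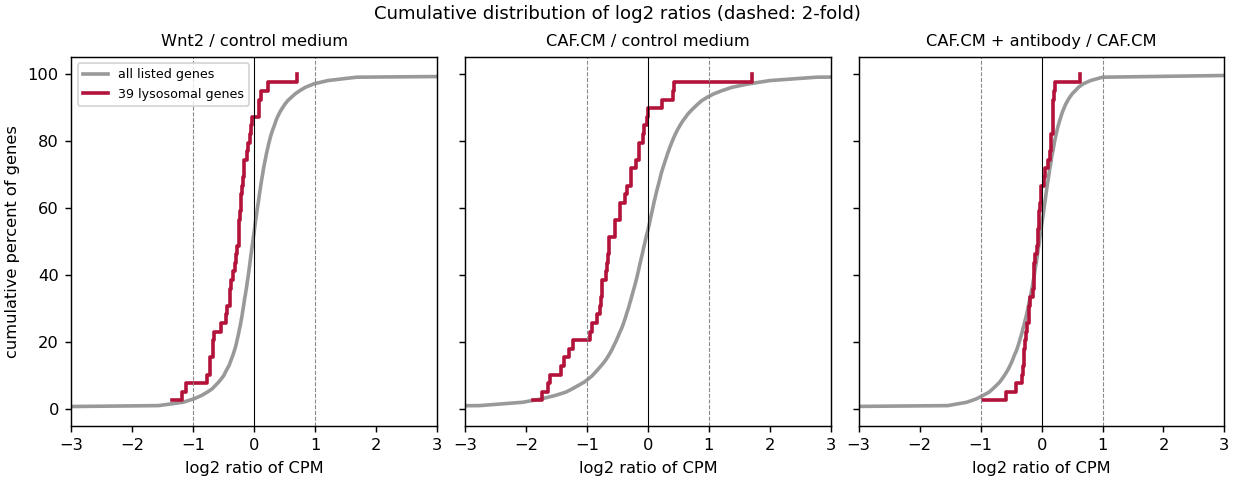
Cumulative share of genes (y axis, percent) by log2 ratio (x axis) in each of the 3 comparisons, with 1 line for the 39 lysosomal genes and 1 for all genes of the table, and dashed lines at 2-fold. The line of the 39 genes stands left of the all-gene line with CAF.CM (medians -0.63 and -0.04) and lies close to it for the antibody (-0.06 and -0.04).

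The 39 genes together took 5.75% of the reads in genes common to the 3 tables in control medium, 4.06% in the Wnt2 library, 3.95% in the CAF.CM library and 3.44% in the antibody library. Over reads in protein-coding genes these shares were 7.08%, 5.06%, 5.21% and 4.75%, so the order of Wnt2 and CAF.CM depends on the denominator. Protein-coding genes held 81.2%, 80.1%, 75.8% and 72.4% of reads in the same order of libraries, and the nuclear RNA Malat1 held 1.38%, 1.76%, 2.86% and 3.86%. The part of these shifts in the lower lysosomal values was not tested beyond the rescaling given above. Mitochondrial transcripts held 5.28%, 6.10%, 4.27% and 4.11%.

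Markers of cell types differed between the libraries as well. Of 10 dendritic cell markers 8 were listed in all tables and summed to 3200.1 CPM in control medium, 616 in the Wnt2 library, 1629 in the CAF.CM library and 1521 in the antibody library. With CAF.CM they did not move together. Of the 8, 2 (Itgax and Cd74) were called lower and none higher, beside 8.69% and 6.68% of all genes. The median log2 ratio of the 8 was -0.10. Itgax, which encodes CD11c, stood at 888, 223, 47.7 and 30.3 CPM, the class II gene H2-Ab1 at 489, 71.0, 483 and 521 CPM, and the transcription factor gene Irf4 at 91.2, 89.0, 172 and 124 CPM. With Wnt2 5 of 9 were called lower, beside 2.93% of all genes, with a median of -1.43. Cd209a was not listed in any table and Flt3 only in the Wnt2 table, at 0.699 CPM in control medium and 1.17 with Wnt2. The 9 macrophage markers listed in all tables, of 10, summed to 2527, 2401, 2279.9 and 1868 CPM, and the 5 monocyte markers, all listed, to 712, 416, 129.9 and 67.7 CPM. Of 10 fibroblast markers 3 were listed in all tables and summed to 5.29, 6.75, 15.9 and 17.2 CPM. The higher sum with CAF.CM is that of Dcn, at 0.509, 1.01, 10.7 and 13.9 CPM, while Pdgfrb was at 2.67, 1.99, 2.80 and 2.02 CPM and Acta2 at 2.10, 3.75, 2.42 and 1.21 CPM. Postn, listed for Wnt2 and CAF.CM, was called lower with both, at 4.51, 1.22 and 0.691 CPM, and Col3a1, listed for Wnt2 alone, was called higher, at 0.657 and 2.58 CPM. Col1a1, Fap, Lum and Pdgfra were not listed in any table. In bulk RNA, fewer cells of one type and less RNA per cell cannot be told apart, and the part of these shifts in the lysosomal values was not tested.

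**Figure D3:**
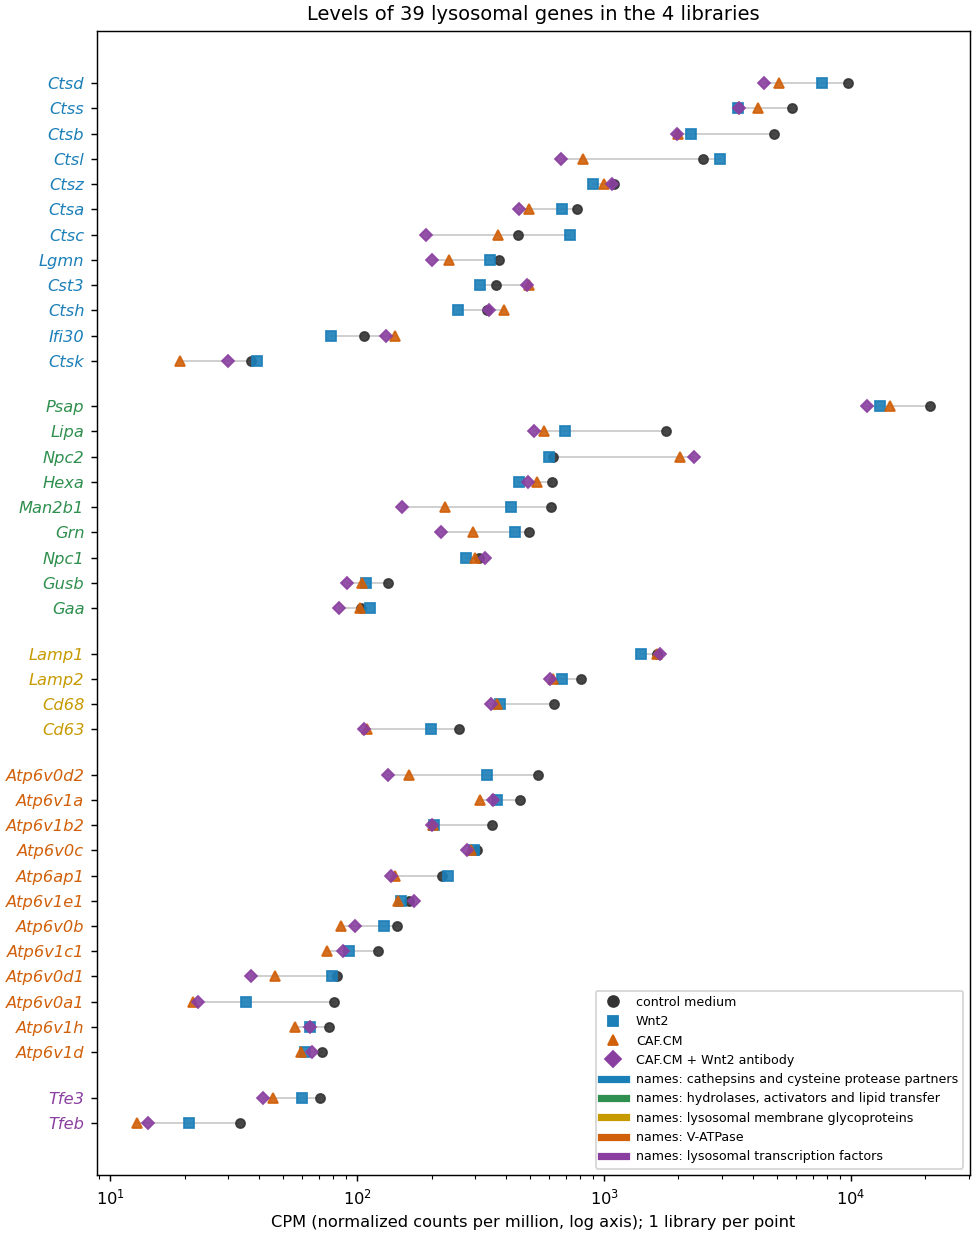
CPM (log axis) of each of the 39 genes in the 4 libraries, grouped by role, 1 point per library with no replicate error. Control medium is the highest library for 27 of the 39 genes and the lowest for 0, and the same count was not made over all genes.

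Tfeb was the only member with fewer than 500 reads in a library: 4723, 3212, 333 and 331 reads over control medium, Wnt2, CAF.CM and the antibody. Its level was 33.4 CPM in control medium, 20.9 in the Wnt2 library, 12.8 in the CAF.CM library and 14.3 in the antibody library. Control medium was the highest library and both CAF.CM libraries the lowest. The log2 ratio was -1.38 with CAF.CM (-1.55 to -1.22) and -0.67 with Wnt2, which is within 2-fold. Tfe3, its paralog, was also highest in control medium, at 70.7, 59.5, 45.5 and 41.5 CPM, with log2 ratios of -0.25 and -0.63 for Wnt2 and CAF.CM. The antibody library against CAF.CM alone was at 0.16 for Tfeb, with an interval that spans 0 (-0.07 to 0.38), and at -0.13 for Tfe3.

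The promoters of the members were read from RefSeq sequences on GRCm38.p6, from 250 bases before to 50 after the start site, and 32 of the 39 genes had one. Atp6v0d2, Atp6v1b2, Atp6v1c1, Atp6v1h, Ctsb, Ctsh and Npc1 were not matched. The letters CACGTG, which read the same on both strands, stood in 10 of the 32 (31.25%), against 8.09% of 27025 genes. They were Atp6v0b, Atp6v0d1, Atp6v1a, Ctsa, Ctsd, Ctsl, Gaa, Ifi30, Lamp1 and Lgmn. The longer TCACGTGA, which contains CACGTG and also reads the same on both strands, stood in 5 (Atp6v0d1, Atp6v1a, Ctsa, Ctsd and Ifi30), or 15.6%, against 1.12%. A match describes letters and not a bound site.

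Promoters are printed from 250 bases before to 10 after the start site, 5′ to 3′ on the gene's strand, with CACGTG in capitals. Lamp1 and Atp6v0b are shown because they hold the letters 4 and 2 times close to the start, Atp6v0d1 because its match lies 3 bases before the start, and Ctsd as the protease with the most reads. The promoters of Atp6v0a1 and Lipa, called lower with both treatments, and of Npc2, called higher with CAF.CM, hold no match in these letters. The RefSeq start of Atp6v0a1 lies inside the gene as GENCODE draws it (chr11:101009452-101063719), so an earlier start was not searched. Starts of Ctsd (chr7:142375911-142388038), Npc2 (chr12:84754562-84773152) and, by a few bases, Atp6v0b also lie inside their genes. Distances and matches in these genes depend on the start used. The 7 printed promoters were chosen after the values were seen.
Lamp1 (chr8:13158911-13159170, + strand): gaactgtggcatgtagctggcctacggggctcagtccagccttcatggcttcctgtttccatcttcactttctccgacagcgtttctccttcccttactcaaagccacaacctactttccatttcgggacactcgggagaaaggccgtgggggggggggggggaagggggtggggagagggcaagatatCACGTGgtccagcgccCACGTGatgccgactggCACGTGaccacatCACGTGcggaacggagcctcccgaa
Atp6v0b (chr4:117887320-117887579, - strand): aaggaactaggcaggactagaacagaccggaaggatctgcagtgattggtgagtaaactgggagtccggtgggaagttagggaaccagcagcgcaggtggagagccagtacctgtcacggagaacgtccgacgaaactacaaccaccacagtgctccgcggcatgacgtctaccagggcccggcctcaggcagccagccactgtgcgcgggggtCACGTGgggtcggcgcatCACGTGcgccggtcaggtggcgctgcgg
Atp6v0d1 (chr8:105566055-105566314, - strand): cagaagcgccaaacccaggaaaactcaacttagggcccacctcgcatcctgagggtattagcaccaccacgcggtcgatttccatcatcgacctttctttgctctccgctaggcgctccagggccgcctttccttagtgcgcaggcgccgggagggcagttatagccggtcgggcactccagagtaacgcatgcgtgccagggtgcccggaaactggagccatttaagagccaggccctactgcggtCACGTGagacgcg
Ctsd (chr7:142387818-142388077, - strand): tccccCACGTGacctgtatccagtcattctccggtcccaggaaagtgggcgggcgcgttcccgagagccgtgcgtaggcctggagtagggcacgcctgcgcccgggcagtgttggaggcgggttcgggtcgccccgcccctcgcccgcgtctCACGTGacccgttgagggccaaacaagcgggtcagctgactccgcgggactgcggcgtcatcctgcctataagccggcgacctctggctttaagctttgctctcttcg
Atp6v0a1 (chr11:101010148-101010407, + strand): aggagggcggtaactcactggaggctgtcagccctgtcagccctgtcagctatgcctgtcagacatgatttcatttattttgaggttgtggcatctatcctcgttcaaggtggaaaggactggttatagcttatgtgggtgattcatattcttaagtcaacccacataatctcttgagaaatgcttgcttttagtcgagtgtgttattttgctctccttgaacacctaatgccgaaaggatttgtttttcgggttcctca
Lipa (chr19:34527465-34527724, - strand): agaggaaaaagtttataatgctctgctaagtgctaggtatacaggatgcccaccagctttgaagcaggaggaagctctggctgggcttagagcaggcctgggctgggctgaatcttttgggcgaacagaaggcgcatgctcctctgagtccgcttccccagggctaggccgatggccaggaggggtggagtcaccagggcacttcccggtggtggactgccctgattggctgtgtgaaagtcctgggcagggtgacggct
Npc2 (chr12:84773103-84773362, - strand): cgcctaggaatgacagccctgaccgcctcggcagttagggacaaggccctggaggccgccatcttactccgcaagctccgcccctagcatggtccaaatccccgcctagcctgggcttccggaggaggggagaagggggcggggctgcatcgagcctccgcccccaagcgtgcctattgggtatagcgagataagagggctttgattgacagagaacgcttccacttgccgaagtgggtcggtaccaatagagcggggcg

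In Lamp1 the 4 matches begin 61, 45, 28 and 15 bases before the start, in Atp6v0b 36 and 18 bases, and in Ctsd 245 and 98 bases. The 10 genes with CACGTG had a median log2 ratio of -0.19 with Wnt2 and -0.66 with CAF.CM, and the 22 without had -0.27 and -0.49. Called lower with CAF.CM were 1 of the 10, Ctsl, and 5 of the 22, beside 8.69% of all genes. With Wnt2 the lower calls were 0 of the 10 and 2 of the 22, beside 2.93% of all genes. The difference between genes with and without these letters was not tested. The 7 genes with no promoter matched stand outside this split and include Ctsb, called lower with both treatments, and Atp6v0d2, called lower with CAF.CM. Lamp1, with 4 matches, was at -0.00 with CAF.CM, while Atp6v0b, with 2, was at -0.75. The range with CAF.CM among the 10 ran from -1.61 (Ctsl) to 0.42 (Ifi30), so genes that share these letters differed widely from each other.

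Among the proteases the cysteine cathepsins Ctsb and Ctsl were called lower with CAF.CM, and only Ctsb was also called lower with Wnt2. Ctsb, cathepsin B, was at 4894 CPM in control medium, 2243 in the Wnt2 library, 1985 in the CAF.CM library and 1966 in the antibody library. All 3 treated libraries lay close together, well under control medium. The log2 ratio was -1.13 with Wnt2 (-1.13 to -1.12), a level 2.18-fold lower, and -1.30 with CAF.CM (-1.32 to -1.29), 2.47-fold lower. Ctsl, cathepsin L, was at 2514 CPM in control medium, 2952 in the Wnt2 library, 823 in the CAF.CM library and 671 in the antibody library. It was highest with Wnt2 and lowest with the antibody, and its log2 ratio was 0.23 with Wnt2 and -1.61 with CAF.CM (-1.63 to -1.59). Ctss, cathepsin S, which cuts the invariant chain in antigen-presenting cells, stayed within 2-fold at 5759.7, 3488, 4211 and 3516 CPM.

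Relative to Ctss in the same library, Ctsl stood above control medium in the Wnt2 library and under it in both CAF.CM libraries. The ratio of Ctsl to Ctss reads was 0.436 in control medium, 0.846 in the Wnt2 library, 0.195 in the CAF.CM library and 0.191 in the antibody library. A ratio within a library does not depend on the scaling between libraries, and its counting intervals did not overlap between control medium, Wnt2 and CAF.CM. Ctsk, the collagen-cutting protease best known from osteoclasts, was at 37.2, 39.2, 19.2 and 29.9 CPM in the same order of libraries, with a log2 ratio of -0.95 with CAF.CM (-1.09 to -0.82), an interval that crosses 2-fold. It was the member with the largest ratio above 0 in the antibody library against CAF.CM alone, at 0.64 (0.47 to 0.81), from 500 and 694 reads. The ratio of Ctsk to Ctsb reads was 0.00760 in control medium, 0.0175 in the Wnt2 library, 0.00968 in the CAF.CM library and 0.0152 in the antibody library, higher in the 3 treated libraries than in control medium. Osteoclast markers, 6 of 8 listed in all tables, summed to 531, 501, 181 and 183 CPM, and the defining genes Calcr and Oscar were not listed in any. Much of the lower sum is that of Mmp9, at 264, 288, 27.4 and 20.3 CPM, while Acp5 was at 128, 121, 102 and 108 CPM. The part of such cells in the Ctsk values was not tested.

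Ctsc, the dipeptidyl peptidase that activates granule serine proteases, had the highest ratio of the 39 with Wnt2 and the lowest with the antibody. Its level was 448 CPM in control medium, 726 in the Wnt2 library, 371 in the CAF.CM library and 191 in the antibody library. Wnt2 was the highest library and the antibody library the lowest, and the log2 ratios were 0.70 with Wnt2 (0.68 to 0.71), -0.27 with CAF.CM and -0.96 (-1.01 to -0.91) with the antibody against CAF.CM alone. The last interval crosses 2-fold. The neutrophil markers listed in all tables, Mmp8 and S100a8, 2 of 10, summed to 548, 1501, 144 and 101.9 CPM, while Elane, Mpo, Ly6g, Ltf, Camp, Ngp and S100a9 were not listed in any. Nearly all of the sum is Mmp8, at 544, 1489, 140 and 99.3 CPM. S100a8 was at 4.64, 11.8, 4.11 and 2.54 CPM, and its log2 ratio with CAF.CM, -0.17 (-0.48 to 0.12), spans 0. The part of these markers in the Ctsc values was not tested.

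Ctsd, the aspartic protease cathepsin D, had the most reads among the proteases, at 9719 CPM in control medium, 7647 in the Wnt2 library, 5120.1 in the CAF.CM library and 4449.8 in the antibody library, and a log2 ratio of -0.92 with CAF.CM (-0.93 to -0.92). Of its exon bases 34.4% lie in Gm49369 on the same strand and 30.6% of its 31-base words occur elsewhere in the annotation, so how its reads were assigned is uncertain. Ctsl has 26.8% of its exon bases in other genes and 8.06% of its words elsewhere. The serine carboxypeptidase Ctsa was at 776, 675, 495 and 452 CPM (log2 ratio -0.65 with CAF.CM), and the asparaginyl endopeptidase Lgmn at 376, 346, 236 and 201 CPM (-0.67). The carboxypeptidase Ctsz stayed within 2-fold, at 1101, 900.4, 996 and 1073 CPM, its ratio with CAF.CM being -0.14 and turning to 0.02 with scaling to protein-coding genes.

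The members higher with CAF.CM than in control medium among the proteases and partners were Ctsh, Ifi30 and Cst3, all within 2-fold. Ctsh, an aminopeptidase, was at 336, 256, 393 and 343 CPM with a log2 ratio of 0.23 with CAF.CM. Ifi30, the lysosomal thiol reductase that opens disulfide bonds of antigens, was at 106, 78.2, 142 and 131 CPM (0.42). Cst3, cystatin C, a secreted inhibitor of cysteine proteases, was at 366, 314, 495 and 486 CPM (0.44). The ratio of Ifi30 to Lgmn reads was 0.282 in control medium, 0.226 in the Wnt2 library, 0.601 in the CAF.CM library and 0.654 in the antibody library, and that of Ctss to its inhibitor Cst3 was 15.7 in control medium, 11.1 in the Wnt2 library, 8.50 in the CAF.CM library and 7.24 in the antibody library. All 12 proteases and partners together had a median log2 ratio of -0.26 with Wnt2, -0.55 with CAF.CM and -0.16 with the antibody.

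**Figure D4:**
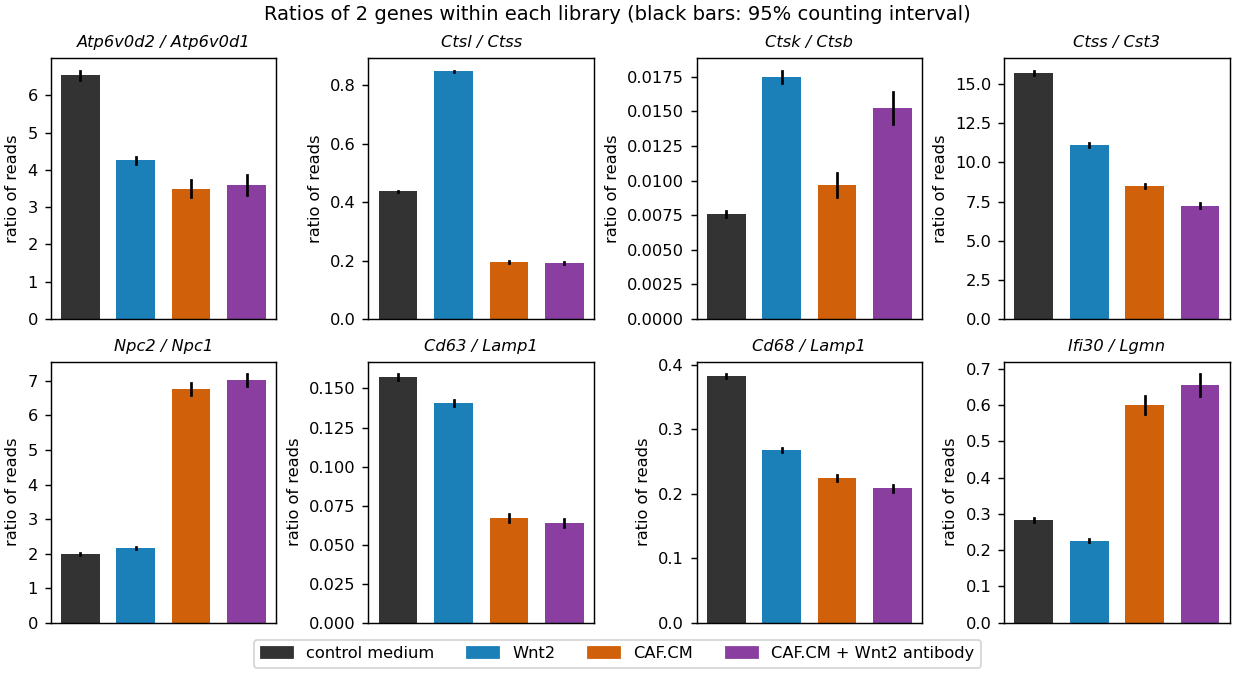
Ratio of the reads of 2 members within 1 library (y axis, linear from 0), 1 panel per pair and 1 coloured bar per library. Thin black lines are 95% counting intervals and do not include replicate error, and the ratio of Npc2 to Npc1 stands near 2 in control medium and with Wnt2 and near 7 in the CAF.CM libraries.

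Lipa, lysosomal acid lipase, which frees cholesterol and fatty acids from esters, was called lower with both treatments. Its level was 1781 CPM in control medium, 696 in the Wnt2 library, 569 in the CAF.CM library and 521 in the antibody library. Control medium stood above the other 3 libraries, and the log2 ratio was -1.35 with Wnt2 (-1.37 to -1.34), 2.56-fold lower, and -1.65 with CAF.CM (-1.67 to -1.62), 3.13-fold lower. Npc2, the soluble protein that hands free cholesterol to Npc1 for export, stood the other way, at 621 CPM in control medium, 597 in the Wnt2 library, 2031 in the CAF.CM library and 2308 in the antibody library. Both CAF.CM libraries were high, 3.27-fold above control medium with CAF.CM alone, a log2 ratio of 1.71 (1.69 to 1.73), while its membrane partner Npc1 was at 312, 277, 300.2 and 329 CPM, with a ratio of -0.06 with CAF.CM that turned to 0.10 with scaling to protein-coding genes. The ratio of Npc2 to Npc1 reads was 1.99 in control medium, 2.16 in the Wnt2 library, 6.77 in the CAF.CM library and 7.02 in the antibody library.

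Man2b1, the lysosomal alpha-mannosidase, was called lower with CAF.CM, at 612 CPM in control medium, 419.6 in the Wnt2 library, 227 in the CAF.CM library and 152 in the antibody library. Its levels lay in that order from the highest library to the lowest, and its log2 ratios were -1.43 with CAF.CM (-1.47 to -1.39) and -0.58 for the antibody against CAF.CM alone (-0.64 to -0.52). Psap, prosaposin, precursor of the saposins that help break down sphingolipids, was the most abundant member per length, at 7603 CPM per kilobase of exon in control medium beside 4241 for Ctss and 4134 for Ctsd. It took 36.0%, 32.3%, 37.6% and 34.4% of the members' reads, and its CPM were 20863, 13157, 14389 and 11588. The ratio was -0.67 with Wnt2 and -0.54 with CAF.CM.

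The other hydrolases and activators stayed within 2-fold. Grn, progranulin, which is cut into granulins in the lysosome, was at 494, 435, 293 and 218 CPM with a log2 ratio of -0.75 with CAF.CM. Hexa, the alpha subunit of beta-hexosaminidase, was at 617, 449.9, 537 and 493 CPM and Gusb, beta-glucuronidase, at 134, 109, 105 and 90.8 CPM. Gaa, acid alpha-glucosidase, was at 104, 112, 103 and 84.2 CPM, with a ratio with CAF.CM of -0.01 that turned to 0.03 with median-of-ratios size factors. The 9 genes of the group had a median of -0.30 with Wnt2, -0.35 with CAF.CM and -0.21 with the antibody.

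The 4 membrane glycoproteins differed from each other. Cd63, a tetraspanin of late endosomes, was called lower with CAF.CM, at 258 CPM in control medium, 199 in the Wnt2 library, 110.0 in the CAF.CM library and 107 in the antibody library, with a log2 ratio of -1.23 (-1.29 to -1.18). Both CAF.CM libraries were low, and 16.6% of its 31-base words occur elsewhere in the annotation. Lamp1, an abundant protein of the lysosomal membrane, was at 1641 CPM in control medium, 1414 in the Wnt2 library, 1639 in the CAF.CM library and 1676 in the antibody library. Its log2 ratio with CAF.CM was -0.00 (-0.02 to 0.01), which spans 0 and became 0.16 with scaling to protein-coding genes. Lamp2 was at 804, 673, 621 and 602 CPM and Cd68, a glycoprotein much used as a macrophage marker, at 628, 379, 368 and 349 CPM, both lower with CAF.CM, at -0.37 and -0.77. Relative to Lamp1 in the same library, Cd63 reads were 0.157 in control medium, 0.141 in the Wnt2 library, 0.0671 in the CAF.CM library and 0.0638 in the antibody library, and Cd68 reads 0.383 in control medium, 0.268 in the Wnt2 library, 0.224 in the CAF.CM library and 0.208 in the antibody library.

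Of the 12 V-ATPase genes, Atp6v0a1 and Atp6v0d2 were called lower with CAF.CM and Atp6v0a1 also with Wnt2. Both belong to the membrane sector V0 and each has alternative isoforms encoded by other genes. Atp6v0a1, an a subunit, was at 80.2 CPM in control medium, 35.4 in the Wnt2 library, 21.7 in the CAF.CM library and 22.6 in the antibody library, from 11349, 5444, 565 and 525 reads. Control medium was the highest library, and the log2 ratio was -1.18 with Wnt2 (-1.23 to -1.13) and -1.88 with CAF.CM (-2.01 to -1.76), the lowest of the 39. Atp6v0d2, the d isoform typical of osteoclasts and some macrophages, was at 539 CPM in control medium, 336 in the Wnt2 library, 162 in the CAF.CM library and 134 in the antibody library. It was 3.33-fold lower with CAF.CM, with a log2 ratio of -1.74 (-1.78 to -1.69), and within 2-fold with Wnt2, at -0.68. The sum of the osteoclast markers given beside Ctsk was also lower in both CAF.CM libraries, but they did not move together. With CAF.CM 4 of the 6 were called lower (Dcstamp, Itgb3, Mmp9 and Ocstamp), beside 8.69% of all genes. Acp5 (-0.32) and Nfatc1 (-0.18) stayed within 2-fold. The part of these markers in the Atp6v0d2 value was not tested.

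The widely expressed isoform Atp6v0d1 stood below Atp6v0d2 in every library. Per kilobase of exon the pair read 198 and 46.0 CPM in control medium and 59.6 and 25.9 with CAF.CM. The ratio of their reads was 6.53 in control medium, 4.25 in the Wnt2 library, 3.49 in the CAF.CM library and 3.58 in the antibody library, so the d2 isoform was lower relative to d1 in the 3 treated libraries, with counting intervals that did not overlap that of control medium. Atp6v0d1 itself was at 82.5, 79.03, 46.4 and 37.3 CPM, with a ratio of -0.83 with CAF.CM, and Atp6v0b at 145, 128, 85.9 and 98.3 CPM, with -0.75. Atp6v0c, which forms the proton-carrying ring, was nearly level at 305, 297, 288 and 277 CPM. Per kilobase of exon it read 90.2, 87.7, 85.2 and 82.0 CPM, under Atp6v0d2 in control medium and the Wnt2 library and above it in both CAF.CM libraries, and 12.9% of its 31-base words occur elsewhere.

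The 6 genes of the outer sector V1 had ratios below 0 with both treatments, apart from Atp6v1e1 with CAF.CM under protein-coding scaling, and none was called. With CAF.CM their log2 ratios ran from -0.79 for Atp6v1b2 to -0.14 for Atp6v1e1, with a median of -0.50, beside -0.83 for the 5 V0 genes. Atp6v1a, the catalytic subunit, was at 457, 367, 314 and 355 CPM, and Atp6v1b2, the other subunit of the ATP-splitting head, at 349.9, 205, 202 and 200.3 CPM. Atp6v1c1 was at 122, 92.8, 75.6 and 87.4 CPM and Atp6v1h, a regulatory subunit, at 76.8, 64.5, 56.1 and 64.2 CPM. Atp6v1d, of the rotor, was at 71.8, 61.4, 58.9 and 65.8 CPM and Atp6v1e1, of the stalk, at 162, 150.5, 146 and 169 CPM. The accessory protein Atp6ap1 was at 221, 234, 143 and 137 CPM, with 0.08 for Wnt2 and -0.63 for CAF.CM.

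All 12 pump genes had ratios below 0 with CAF.CM, except that Atp6v0c and Atp6v1e1 turned to 0.08 and 0.02 with scaling to protein-coding genes. In the antibody library against CAF.CM alone, 5 of the 6 V1 genes stood above 0, all within 2-fold, from 0.16 (Atp6v1d) to 0.21 (Atp6v1e1), and the V1 median was 0.19. The V0 median was -0.06 and that of the 12 cathepsins and partners -0.16 in the same comparison. Atp6v1b2, the sixth, was at -0.01 and turned to 0.03 under 2 other scalings. The difference between these groups of genes was not tested, and 54.8% of all genes were below 0 in that comparison.

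**Figure D5:**
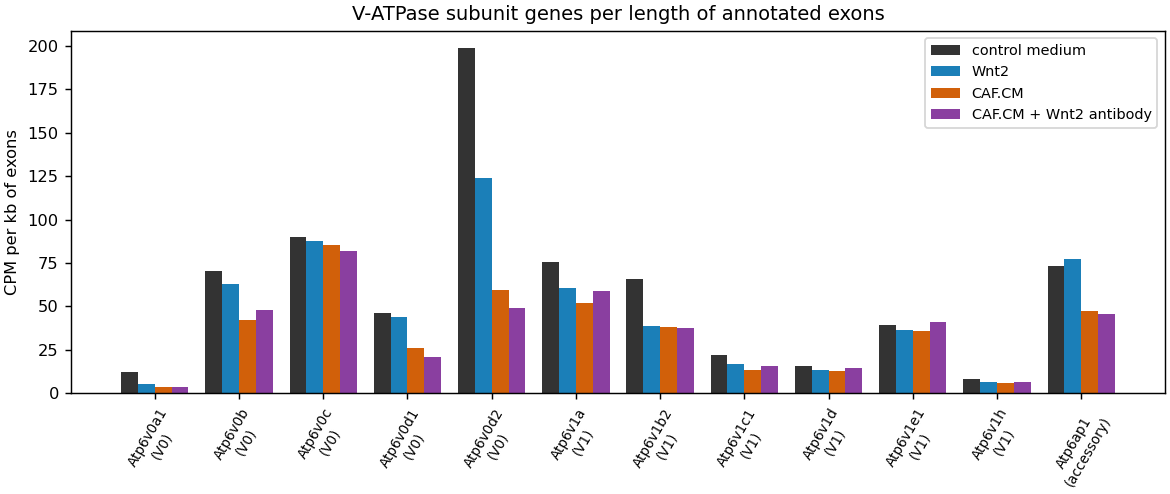
CPM per kilobase of annotated exon (y axis, linear from 0) of the 12 V-ATPase members, labelled by sector, with 1 bar per library and no replicate error. Atp6v0d2 is the tallest in control medium (198) and stands below Atp6v0c in both CAF.CM libraries, while Atp6v0a1 is among the lowest genes in every library.

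In the order of the 4 libraries, 16 members stood highest in control medium, then Wnt2, CAF.CM and CAF.CM plus the antibody. How often all genes fall in each order was not counted, so these counts describe the 39 and are not shown to be particular to them. The highest library was Wnt2 for 5 members (Ctsc, Ctsk, Ctsl, Gaa and Atp6ap1), CAF.CM for 3 (Ctsh, Ifi30 and Cst3) and the antibody library for 4 (Npc1, Npc2, Lamp1 and Atp6v1e1). The lowest library was the antibody for 21 members, Wnt2 for 9 and CAF.CM for 9. For 17 of the 39, 6 of them among the 16 in the order above, at least 1 pair of neighbouring libraries had overlapping counting intervals, so those places are not separated even by counting error. The pairs were not only the CAF.CM libraries. Control medium and CAF.CM overlapped for Lamp1 and Gaa, and Wnt2 and CAF.CM for Gusb, Atp6v0c, Atp6v1b2, Atp6v1d and Atp6v1e1. The antibody library overlapped control medium for Ctsh, and Wnt2 for Ctss, Atp6v1d and Atp6v1h.

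Beyond the 39, a list of 118 other lysosomal and related genes was read in the same way, of which 104 were listed for Wnt2, 104 for CAF.CM and 101 for the antibody. With CAF.CM 12 of the 104 (11.5%) were called lower, beside 8.69% of all genes, and 1 was called higher, beside 6.68%, with a median of -0.32. The counting interval lay wholly beyond 2-fold for 9 of the 12 and not for the 1 higher. With Wnt2 2 (1.92%) were lower, beside 2.93%, and 1 was higher, beside 2.87%, with a median of -0.17. For the antibody 1 of 101 was lower, beside 3.65%, and 0 higher, beside 1.02%, with a median of -0.06. Mitf, a relative of Tfeb, was among the genes called lower with both treatments. It was at 184 CPM in control medium, 79.9 in the Wnt2 library, 60.9 in the CAF.CM library and 59.4 in the antibody library, with log2 ratios of -1.21 and -1.60. The 13 listed genes of its group, which include those that dock mTORC1 at the lysosome, had a median of -0.67 with CAF.CM, where Mitf alone was called, and Rragd (-0.96), Tfec (-0.81) and Fnip2 (-0.71) stayed within 2-fold.

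Of 13 other proteases and inhibitors listed, 3 were called lower with CAF.CM, beside 8.69% of all genes. They were Ctse (-3.22), an aspartic protease, Dpp7 (-1.44) and Ctso (-1.01). Cst7, cystatin F, which inhibits cathepsins inside the cell, was the 1 called higher, at 1.07, beside 6.68% of all genes. The counting intervals of Ctso (-1.14 to -0.88) and Cst7 (0.89 to 1.26) reach inside 2-fold. Of 31 other hydrolases 5 were lower with CAF.CM, beside 8.69% of all genes: Lyz1, Lyz2, Dnase2a, Hgsnat and Ids. Lyz1 was at -2.62 and Lyz2 at -1.90, 2 lysozyme genes that share 34.2% and 32.8% of their 31-base words with other genes, so their split is uncertain. Dnase2a, which digests DNA in lysosomes, was at -1.73, and Hgsnat at -1.25. Ids, at -1.12, had a counting interval that reaches inside 2-fold (-1.32 to -0.93). With Wnt2 only Lyz1 of the 31 was called, at -1.66, beside 2.93% of all genes lower. For the antibody only Sgsh was called, at -1.03, beside 3.65% of all genes lower. The counting interval of Sgsh (-1.24 to -0.84) reaches inside 2-fold.

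Further membrane proteins differed among themselves: of 20 listed, only Gpnmb (5%, beside 8.69% of all genes) was called lower with CAF.CM, at -1.49. Scarb2, the receptor that carries beta-glucocerebrosidase to lysosomes, was at 0.96 with CAF.CM. Cd164, a sialomucin, was called higher with Wnt2, at 1.27, beside 2.87% of all genes. Of 12 genes of lysosomal sorting 1 (8.33%), the receptor Lrp1, was called lower with CAF.CM, at -1.45, near the share of all genes (8.69%). The mannose 6-phosphate receptor Igf2r was at -0.97. The 7 other V-ATPase genes listed with CAF.CM had a median of -0.58. Only Atp6v1g2 (14.3%, beside 8.69% of all genes) was called lower, at -1.20, with a wide counting interval (-1.89 to -0.62). Tcirg1, the a3 subunit, was at 654, 419.5, 377 and 364 CPM, which is 142 CPM per kilobase of exon in control medium beside 12.2 for Atp6v0a1, and its ratio with CAF.CM was -0.79. The 8 autophagy genes had medians of 0.22 with Wnt2, 0.09 with CAF.CM and 0.14 with the antibody, and none was called. Among them Sqstm1, the cargo receptor p62, was at -0.56 with Wnt2 and Wipi1 at 0.74 with CAF.CM.

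Several members overlap other genes in the annotation, and whether the counting used strand is not given. Of the 39, 9 had more than 5% of their exon bases in another gene and 4 more than 5% of their 31-base words elsewhere. Ctsb (chr14:63122462-63145923, GRCm38) has 12.8% of its exon bases in Fdft1 on the opposite strand, which stood at 10.9 CPM in control medium and 13.9 with the antibody, far below Ctsb. Ctsa has 17.4% in Neurl2 and Pltp on the opposite strand, and Pltp was at 265 CPM in control medium and 76.4 with Wnt2. Lipa (chr19:34492318-34527474), Atp6v0a1, Atp6v0d2 (chr4:19876841-19922605) and Npc2 (chr12:84754562-84773152) were each under 5% on both measures.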

How the data were processed

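RNA of 4 groups of mouse dendritic cells, sequenced from stranded libraries (1 ug of total RNA without ribosomal RNA, per the labels' protocols), is described by 1 column per group. The submitters' processing notes list edgeR, STAR 2.4.2a and RSEM 1.2.29 and, as builds, mm10 and GRCm38.p5, without settings. The deposited values are CPM normalized by the authors, with 1 table per comparison, beside the authors' log2 fold changes, log2 mean CPM, p-values and adjusted p-values. Columns standing in 2 tables were identical in 12954 of 12954 and 12848 of 12848 genes.

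The plan allowed for counts, while the files hold CPM. Each CPM is a whole multiple of what 1 read is worth (0.00706, 0.00651, 0.0384 and 0.0431 CPM), within 0.1 of a step, for 100% of values. Reads were recovered from these steps, and with 1 library per group no count test was run. Log2 ratios used a prior count of 2 scaled by library, and intervals were exact (Clopper-Pearson) at 95%. They and the recovery were tested on simulated libraries, where 100% of 4-fold genes were called. The simulated counts held counting error only, which the intervals assume, and a 4-fold change lies well beyond the 2-fold rule. Replicate spread was not simulated. Python 3.11.15, numpy 2.4.6, pandas 2.3.3, scipy 1.17.1 and matplotlib 3.10.9 were used. Exon overlaps came from GENCODE M21 and promoters from RefSeq. All 39 members are named; of each other list up to 4 genes per comparison with the largest ratio and at least 200 reads are named, and Ids, outside this rule, was named after its values were seen. Members and lists were chosen with earlier results of these data known. Alternatives were other scalings, prior counts, a read minimum, a 1.5-fold threshold, the deposited fold changes and a shorter promoter window.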

Additional observations from a re-analysis of the deposited data

How the results depend on the processing

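No call among the 39 members changed under other scalings, prior counts of 0.5 and 5, a minimum of 100 reads or the authors' deposited fold changes. The median with Wnt2 (-0.26) was -0.23 with median-of-ratios size factors and -0.23 with reads in protein-coding genes. The median with CAF.CM (-0.63) was -0.59 with size factors, -0.57 with total reads and -0.47 with protein-coding reads, where the all-gene median moved with it. A 1.5-fold threshold gave 1 member higher and 9 lower with Wnt2, 20 lower with CAF.CM, and 1 higher and 1 lower with the antibody. Over protein-coding reads the members' shares were 7.08%, 5.06%, 5.21% and 4.75%. The promoter window cut to the 150 bases nearest the start held CACGTG in 6 of 32 members (18.75%), against 5.00% of 27025 genes. TCACGTGA stood in 3 of the 32 there (9.4%), against 0.85%. Among all genes, a minimum of 100 reads left 47 higher and 261 lower calls of 10361 genes for the antibody, beside 133 and 477 of 13072. With protein-coding scaling, lower calls were 44.1% of all calls with CAF.CM, beside 56.5%. No paired analysis was possible because each group has 1 library, and leaving out a replicate was not possible for the same reason. Read counts limit counting error only: a member had 331 reads or more in every library. The spread between cultures was not measured.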
